A study of Drosophila melanogaster with 24 samples.

Results

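Cytochrome P450 genes, the genes whose symbol is Cyp with a family number and a subfamily letter, were followed over the lines and the sexes. They were found by the array's probe-to-gene annotation, which paired 81 P450 genes with a probe set of their own. A gene was kept where the Signal, the MAS5 measure of transcript abundance on a linear scale, was at least 50 on 12 or more of the 24 arrays, and the brightest probe set stood for the gene. By this rule 70 P450 genes were described, among 9847 genes with 1 symbol and a tested probe set, and 11 fell below it (*Cyp303a1*, *Cyp304a1*, *Cyp308a1*, *Cyp311a1*, *Cyp313a2*, *Cyp313a3*, *Cyp313a4*, *Cyp313a5*, *Cyp313b1*, *Cyp316a1* and *Cyp4c3*). Just inside the rule were *Cyp28c1*, *Cyp28d2* and *Cyp310a1*, on 12 arrays each, and just outside it was *Cyp313b1*, on 11. The symbols *Cyp1* and *Cyp40* also begin with Cyp and a digit, but both genes encode cyclophilins, which are protein-folding enzymes, and they were left out of the counts.

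The flies came from 6 lines of *Drosophila melanogaster*, all founded from isofemale lines of a Raleigh natural population. Resistant lines R1 and R2 and sensitive lines S1 and S2 had been selected for how they withstood ethanol vapor, and control lines C1 and C2 had been kept without selection. At generation 25, RNA was taken from whole bodies of virgin males and virgin females aged 3 to 5 days, in 2 pools of 15 flies for each sex of each line. The labels state that all flies met ethanol vapor before extraction, a step absent from the published array methods, and no unexposed flies were compared. Each pool came from a single line, and the 2 lines of a selection group are the only replicates of selection.

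P450 enzymes are haem monooxygenases that insert an oxygen atom into small lipophilic molecules. In insects they make and break down ecdysteroid hormones, oxidise fatty acids and cuticular hydrocarbons, and convert plant toxins and insecticides, mostly in the midgut, the Malpighian tubules and the fat body. Those of the endoplasmic reticulum receive electrons from a P450 reductase, and those of the mitochondrion from ferredoxins. By textbook classification, 36 of the genes belong to the CYP3 clan, which holds most of the detoxification enzymes, 24 to the CYP4 clan, which holds many fatty acid hydroxylases, 8 to the mitochondrial clan and 2 to the CYP2 clan.

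Of the 70 genes, 55 had a Signal of at least 50 on every array, and 5 (*Cyp28c1*, *Cyp28d2*, *Cyp310a1*, *Cyp317a1* and *Cyp4d21*) reached it on fewer than 6 of the female arrays. Male arrays had a median Signal between 131 and 150, and female arrays one between 55.7 and 81.0, controls left out. The 2 pools of S1 females stood apart, with a correlation of 0.958 over all tested probe sets, the lowest of any line and sex. Between these pools 12 P450 genes differed by more than 2-fold, against 0 to 5 elsewhere, and 59 of the 70 were lower in the first pool. Of all 11857 probe sets tested, 1479 differed by more than 2-fold between them, against 186 to 1295 elsewhere. The median log2 difference, first minus second pool, was -0.50 for the P450 genes and 0.09 for all probe sets. Summed flight muscle markers (*fln*, *TpnC4* and *Act88F*) were 2511 in the first pool and 55321 in the second, and their part in the P450 values was not tested. The counts between lines and selection groups are also given without each of these pools.

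Most P450 genes were more abundant in males than in females. Averaged over the lines, 49 of the 70 were higher in males and 6 lower (limma, Benjamini-Hochberg adjusted p under 0.001), whereas 36% of all 11857 probe sets tested were higher in males and 42.3% lower. The median sex difference, males minus females, was 0.67 on the log2 scale for the P450 genes and -0.04 for all probe sets. The male mean exceeded the female mean in all 6 lines for 54 genes (77.1%, against 36.9% of all probe sets), fell below it in all 6 for 8 (11.4%, against 42.7%), and was mixed for the other 8. The excess ran through the clans, with 24 of 36 CYP3, 17 of 24 CYP4 and 7 of 8 mitochondrial genes higher in males. The 5 genes that reached the Signal minimum on few female arrays passed it mainly through males, so a male excess was built into their choice. Among the 65 that were present in both sexes 45 were higher in males (69.2%) and 6 lower (9.23%), against 25% and 49.5% of the 9550 probe sets present in both. Whole flies were measured, so a transcript present in fewer cells and one with less RNA per cell cannot be told apart.

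**Figure D1:**
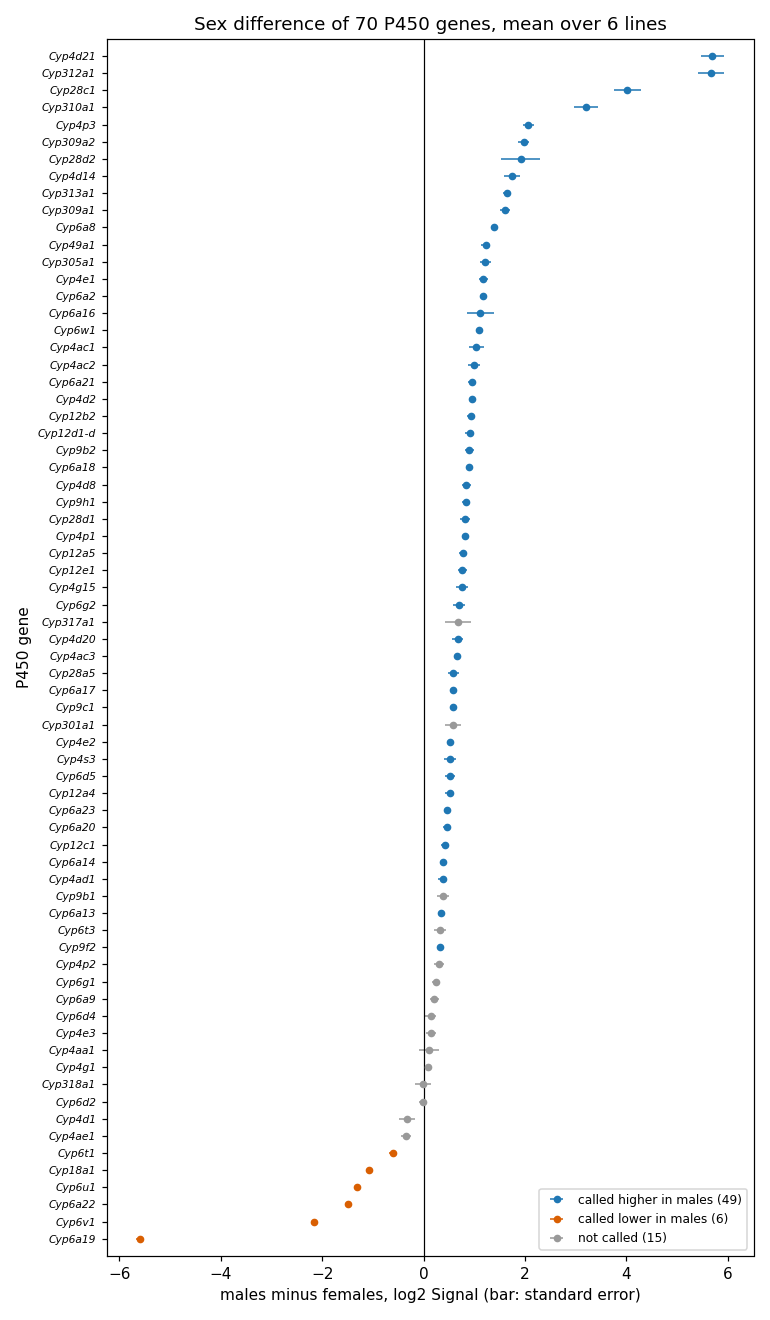
Difference between males and females for each of the 70 P450 genes, in log2 Signal averaged over the 6 lines (points, with bars for the standard error from limma). Points to the right of 0 are higher in males (49 called), and the 6 called lower in males are led by *Cyp6a19* at -5.60.

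The male excess was widest for genes whose female Signals lay near or under the minimum, where its size is poorly set. One was *Cyp4d21*, also known as sex-specific enzyme 1, which is transcribed in male fat body downstream of the sex determination genes. Its lowest, median and highest Signals were 238, 491 and 1785 in the 12 male pools, against 1.77, 7.95 and 106 in the 12 female pools, with no overlap. It reached the minimum of 50 on 2 female arrays, and with every lower value raised to 50 the difference was 3.24 on the log2 scale, a male excess of at least 9.42-fold. *Cyp312a1*, a CYP4 clan gene that reached 50 on 8 female arrays, had 2082, 2539.9 and 3335 in males, against 7.66, 52.7 and 234 in females, or at least 35.6-fold more in males by the same reckoning. For *Cyp28c1* and *Cyp310a1*, all female values lay below the Signal minimum of 50. *Cyp28c1* showed 154, 189 and 265 in males, against 4.08, 10.9 and 43.0 in females, an excess of at least 3.97-fold, and *Cyp310a1* 55.6, 123 and 287 in males, against 3.56, 13.0 and 42.4 in females, at least 2.51-fold. A more graded excess was seen for *Cyp4p3*, at 319.8, 437 and 719.6 in males and 61.8, 106 and 172 in females (2.07 ± 0.10 on the log2 scale, standard error, adjusted p = 3.1e-12 by limma), and for *Cyp309a2*, at 229, 456 and 613 in males and 49.7, 108 and 183 in females (1.98 ± 0.11). None of these 6 genes had male and female pools that overlapped. *Cyp28c1* and *Cyp310a1* reached 50 on 12 male and 0 female arrays. With no female array at 50, the filter kept them only if every male array reached it, so their separation was fixed in advance. Over the family, every male pool exceeded every female pool for 15 genes (21.4%), a share near the 21.1% of all probe sets. The 15 include *Cyp28c1*, *Cyp310a1* and *Cyp28d2*, the last also on 12 male and 0 female arrays.

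The 6 genes that were lower in males were all but 1 of the Cyp6 family. *Cyp6a19* had lowest, median and highest Signals of 49.5, 68.0 and 320.0 in males, against 2060.5, 4497 and 5056 in females, a 48.6-fold female excess (-5.60 ± 0.07, adjusted p = 1.23e-19 by limma). Outside R2 its male Signals lay near the minimum of 50 (49.5 to 95.2), which limits how well the fold is set. With lower values raised to 50 the difference was -5.60. *Cyp6v1* showed 100.02, 123 and 151 in males and 473, 542 and 612 in females (-2.15 ± 0.07), and *Cyp6a22* 226, 299.7 and 503 in males and 689, 872 and 1164 in females (-1.49 ± 0.06). For these 3 the sexes were fully separate. *Cyp6u1* reached 273, 314 and 393 in males and 621, 764 and 1026 in females (-1.31 ± 0.06). *Cyp18a1*, whose enzyme inactivates ecdysteroids by hydroxylation, had 188, 254 and 305 in males and 379.6, 559 and 689 in females (-1.08 ± 0.06), also without overlap. *Cyp6t1* gave the smallest of these 6 differences, with 309, 419.7 and 542 in males and 541, 655 and 839 in females (-0.61 ± 0.08), and here the highest male pool was level with the lowest female pool. Of these 6 genes, 5 had every female pool above every male pool (7.14% of the family, against 31.5% of all probe sets).

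For *Cyp6g1* and *Cyp4g1* the sex difference did not pass the threshold. *Cyp6g1*, an enzyme known for resistance to DDT, had Signals of 17174, 21479 and 24706 in males and 15279, 18015 and 23258 in females (0.24 ± 0.07, adjusted p = 0.00304 by limma). *Cyp4g1*, which makes cuticular hydrocarbons in the oenocytes, had 18578, 22625 and 25539 in males and 17975, 20959 and 27434 in females (0.10 ± 0.07, adjusted p = 0.182). The tissue makeup moved with sex. All 6 tested yolk and eggshell markers (*Yp1*, *Yp2*, *Yp3*, *Vm26Aa*, *Cp16* and *Cp18*) were higher in females (summed Signal 186 to 297 in males, against 54559 to 94767 in females). All 6 male tract markers were higher in males (45774 to 73771 in males, against 31.4 to 160.3 in females). Malpighian tubule markers summed to 1350 to 3347 in males and 717 to 1860 in females, with *Irk3* called higher in males (0.89). Fat body markers summed to 14415 to 18883 in males and 16247 to 24339 in females, with *fit* (-3.54) and *Lsd-2* (-1.08) called lower in males. Midgut markers summed to 37049 to 79751 in males and 34670 to 78801 in females. There *Mal-A1* (0.89) was called higher in males and *Jon99Fi* (-1.39), *Jon66Ci* (-0.98) and *Jon44E* (-0.65) lower. The part of any of these sets in the P450 differences was not tested. When all arrays were brought to 1 distribution, the median of all probe sets moved to -0.22 and that of the P450 genes to 0.51, and 43 were then higher and 9 lower in males.

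P450 transcripts also varied widely among the 6 lines. A line effect passed the threshold (adjusted p under 0.001, F test of limma) for 29 of the 70 genes (41.4%), against 12.3% of all probe sets. These were 17 of 36 CYP3 genes, 9 of 24 CYP4 genes, 3 of 8 mitochondrial genes and 0 of 2 CYP2 genes. The 0 depends on the probe set kept for *Cyp18a1* (median Signal 342, adjusted p = 0.00211 by the F test). Its other probe set, of median Signal 348, did pass (adjusted p = 0.000116) and was called higher in resistant than sensitive lines (0.22). The span from the lowest to the highest line mean had a median of 0.88 on the log2 scale over the P450 genes and 0.54 over all probe sets, and it exceeded 2 for 8 genes. Without the first or the second pool of S1 females, 36 and 40 genes showed a line effect (51.4% and 57.1%), and the share of all probe sets was higher too, at 17.7% and 15.8%. At the other end, *Cyp6g1* and *Cyp4g1* had spans of 0.24 and 0.27. Both have high Signals, and saturation of their probes was not tested.

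The widest span, 6.52, was that of *Cyp12d1-d*, a mitochondrial P450 whose overexpression is known to protect flies from DDT. In males its pools read 323, 206, 3797 and 4605 in lines R1 and R2 (2 pools each), 264, 212, 9346 and 8882 in S1 and S2 and 68.7, 77.1, 148 and 126 in C1 and C2. In females they read 81.5, 97.4, 1529 and 1580.4 in R1 and R2, 108, 158, 4773 and 4117 in S1 and S2 and 56.3, 76.3, 113 and 86.5 in C1 and C2. Lines R2 and S2, which were selected in opposite directions, were thus both far above the other 4 lines in each sex. The 2 resistant lines differed by -4.07 (R1 minus R2) and the 2 sensitive lines by -5.17 (S1 minus S2). A neighbouring gene, *Cyp12d1-p*, is a near-identical copy, and RNA from either copy cannot be told apart here.

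Line S2 stood out for other genes too. *Cyp6a2*, a broad metaboliser of insecticides that phenobarbital is known to induce, had 1344, 1416, 597 and 655 in male pools of R1 and R2, 1166, 986, 7137 and 6284 in those of S1 and S2 and 877, 925, 617 and 770.1 in those of C1 and C2. The female pools held 649, 832, 207 and 184 in R1 and R2, 327, 422, 2761 and 2892 in S1 and S2 and 493, 544, 304 and 428 in C1 and C2, so that S2 was above every other line in both sexes. S1 minus S2 was -2.78 and the span 3.64. *Cyp6w1* was also highest in S2, with male pools of S2 at 8782 and 8767 against 2644 to 3818 in the other lines, and S1 minus S2 at -1.51. *Cyp28a5* ran the other way, since its S2 pools were the lowest of each sex (232 and 151 in males, 83.4 and 139 in females) and S1 minus S2 was 2.44. Its R1 and R2 pools held 434, 405, 437 and 489 in males and 253, 274, 238 and 234 in females, below those of both control lines (956, 814, 1179 and 902 in males, 690.3, 695, 758 and 884 in females).

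**Figure D2:**
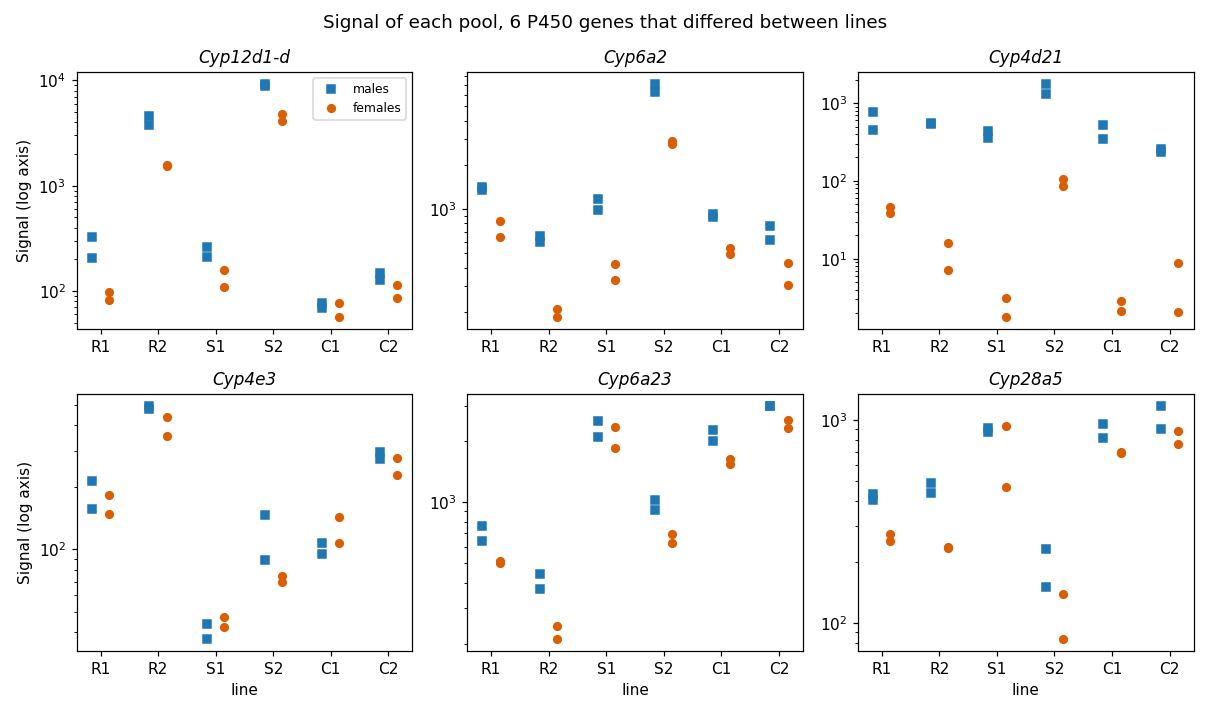
Signal of every pool (log axis) for 6 P450 genes in resistant lines R1 and R2, sensitive lines S1 and S2 and control lines C1 and C2, with males as squares and females as circles. *Cyp12d1-d* is high in R2 and S2 alone, *Cyp6a2* in S2, and *Cyp4e3* and *Cyp6a23* separate the resistant from the sensitive pools within each sex.

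*Cyp4d21*, the male-biased gene, had a span of 3.65, and its lines were wider apart in females than in males. Female pools read 38.8, 46.4, 7.11 and 15.9 in R1 and R2, 3.09, 1.77, 85.5 and 106 in S1 and S2 and 2.13, 2.82, 2.07 and 8.80 in C1 and C2, so R1 and S2 lay above the other 4 lines. Male pools read 767, 453, 559 and 542 in R1 and R2, 355, 444, 1785 and 1306 in S1 and S2 and 529, 350.5, 238 and 254 in C1 and C2, again with S2 the highest. S1 minus S2 was -3.65 with the sexes averaged, although most of the female values lay below the Signal minimum. Its line by sex interaction had an adjusted p of 0.0236 (limma) and did not pass.

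Lines of 1 selection group, which differ in no treatment, were often apart. R1 and R2 differed for 22 P450 genes (16 higher and 6 lower in R1; 7.27% of all probe sets called), S1 and S2 for 21 (12 higher and 9 lower in S1; 9.61%), and C1 and C2 for 19 (9 higher and 10 lower in C1; 7.21%). These calls, like those between selection groups, needed a line effect or an interaction at an adjusted p under 0.001 and a contrast at p under 0.05, as in the stepwise procedure of the study, and their error is the spread between pools. In all, 28 genes were called within at least 1 group (40%, against 12% of all probe sets) and 10 within all 3 (14.3%, against 3.21%), among them *Cyp12d1-d*, *Cyp6a2*, *Cyp6a23* and *Cyp4e3*. Without the first pool of S1 females S1 and S2 differed for 27 genes, and without the second for 32, while line effects rose over all probe sets too. The lines numbered 1 and 2 descend from separate founding cultures, and for 7 genes (10%) the means of R1, S1 and C1 all exceeded those of R2, S2 and C2, whereas 9.26% of all probe sets showed such a split in either direction. *Cyp12a5*, an enzyme linked to insecticide resistance, was one of the 7, with line means of 693 in R1, 312.8 in R2, 749.7 in S1, 418 in S2, 741 in C1 and 357 in C2.

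Between resistant and sensitive lines, P450 genes moved in both directions. With the sexes averaged, 8 genes were called higher in resistant lines (11.4%, against 5.23% of all probe sets) and 10 lower (14.3%, against 3.54%). The median difference, resistant minus sensitive, was 0.02 over the P450 genes and 0.03 over all probe sets, so the family had no common direction, and the median absolute difference was 0.23 against 0.15. Both line pairs (R1 with S1, R2 with S2), each taken within each sex, pointed 1 way for 10 of the 18 called genes. That is 14.3% of the family against 3.55% of all probe sets. Of these 10 genes, those higher in resistant lines were *Cyp4e3*, *Cyp6a16*, *Cyp28d1*, *Cyp6a14* and *Cyp4ac3*, and those lower were *Cyp6a23*, *Cyp9b1*, *Cyp6a20*, *Cyp12a5* and *Cyp9h1*. Only *Cyp4e3* and *Cyp6a23* had resistant and sensitive pools that did not overlap in either sex, 2.86% of the family against 1.46% of all probe sets.

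**Figure D3:**
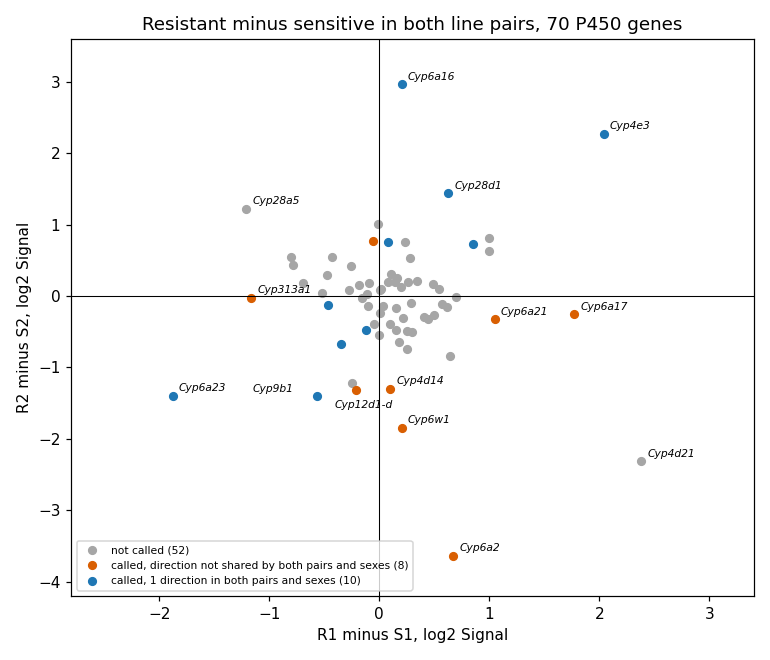
Resistant minus sensitive difference in log2 Signal in line pair 1 (R1 minus S1, horizontal) and line pair 2 (R2 minus S2, vertical), with sexes averaged, 1 point for each of the 70 P450 genes. *Cyp4e3* (2.04 and 2.27) and *Cyp6a23* (-1.88 and -1.40) lie far from 0 in both pairs, whereas *Cyp6a2* (0.67 and -3.64) and *Cyp4d21* (2.38 and -2.32) change sign between pairs.

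*Cyp4e3*, known for permethrin tolerance in the Malpighian tubules, had the largest positive difference between resistant and sensitive lines. Male pools held 215, 157, 496 and 477 in R1 and R2 and 43.5, 36.9, 89.4 and 147 in S1 and S2, and female pools 183, 148, 435 and 355 in R1 and R2 and 42.2, 47.4, 74.5 and 69.4 in S1 and S2. Every resistant pool exceeded every sensitive pool of its sex, and the mean difference was 2.14 in males and 2.16 in females on the log2 scale (2.15 ± 0.13 with sexes averaged, adjusted p = 9.02e-09 by limma). The control pools lay at 108, 94.6, 274 and 295 in males of C1 and C2 and 144, 108, 278 and 229 in females. In each selection group line 2 was the higher, so that C2 exceeded R1, and resistant minus control was 0.67 and sensitive minus control -1.48.

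The other genes higher in resistant lines differed by less or rested on fewer lines. *Cyp28d1*, linked to nicotine resistance in flies, had 1763, 1827, 4421 and 4386 in male pools of R1 and R2 against 1347, 1089.7, 1620.2 and 1616 in those of S1 and S2, and 1244, 976, 2428 and 2236 in female pools of R1 and R2 against 455, 1029, 892 and 838 in those of S1 and S2 (1.03 ± 0.13). Its male pools did not overlap and its female pools did, and R2 was far above R1. Without R2 the difference was 0.44 and was not called. *Cyp6a14* held 526, 646, 382 and 364 in males of R1 and R2 against 362, 291, 255 and 227 in S1 and S2, and 509, 409, 252 and 278 in females of R1 and R2 against 229, 278, 161 and 138 in S1 and S2 (0.79 ± 0.08). Among its females the highest sensitive pool just exceeded the lowest resistant pools. The male pools were barely apart, with the lowest resistant pool at 363.5 and the highest sensitive pool at 361.5. *Cyp4ac3* differed by 0.42 ± 0.08, nearly all of it in line pair 2 (0.75, against 0.08 in pair 1), and the call was lost without the first pool of S2 males (0.38) or either pool of S2 females (0.42 and 0.41). *Cyp6a16* was near the Signal minimum, with 84.7, 70.6, 176 and 135 in males of R1 and R2 against 59.8, 61.4, 11.4 and 11.8 in S1 and S2, and 69.2, 53.3, 55.4 and 18.4 in females of R1 and R2 against 43.5, 78.7, 14.3 and 3.41 in S1 and S2 (1.58 ± 0.33). Its difference was 2.96 in pair 2 and 0.20 in pair 1, and the call was lost without either pool of S2 males, the second of S2 females, the first of R2 males or the second of C2 males (1.32 to 1.59).

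*Cyp6a23* had the largest negative difference between resistant and sensitive lines. Male pools held 765, 639, 373 and 443 in R1 and R2 and 2504, 2103, 1026 and 914 in S1 and S2, and female pools 509, 503, 210.1 and 244 in R1 and R2 and 1852, 2338, 694 and 630.1 in S1 and S2. All resistant pools lay below all sensitive pools of their sex (-1.64 ± 0.07, adjusted p = 1.22e-10 by limma; -1.88 in pair 1 and -1.40 in pair 2). The control pools, at 2272, 1999.8, 2999 and 2986 in males of C1 and C2 and 1548, 1639, 2335 and 2532 in females, all lay above the resistant and the S2 pools of their sex. Resistant minus control was -2.39 and sensitive minus control -0.75.

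Among the other genes lower in resistant lines, *Cyp9b1* had 127, 145, 88.1 and 61.7 in males of R1 and R2 against 242, 228, 181 and 183 in S1 and S2, and 131, 119.7, 39.7 and 65.6 in females of R1 and R2 against 125, 202, 143 and 146 in S1 and S2 (-0.98 ± 0.14). Its male pools were apart, its female pools overlapped, and the call was lost without the second pool of R2 males (-0.92), without line R2 (-0.44) and without line S2 (-1.11). *Cyp6a20*, a gene known for its effect on aggression between males, had 990.2, 1054, 1217 and 1063 in males of R1 and R2 against 1455, 1259.9, 1631 and 1634 in S1 and S2, and 967, 954, 509 and 614 in females of R1 and R2 against 979.5, 1393, 1045 and 948 in S1 and S2 (-0.51 ± 0.07). Here too the male pools were apart and the female pools overlapped. *Cyp12a5* and *Cyp9h1* differed by -0.30 ± 0.09 and -0.29 ± 0.09, and neither was called in males alone. Without line S1 both changed sign (0.11 and 0.08), and so did *Cyp12a5* without R2 (0.29).

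The remaining 8 called genes did not keep 1 direction when each line pair was taken within each sex. The values below average the sexes, so a change of sign within 1 sex may not show. *Cyp6a17*, which is known to affect the temperature that flies prefer, averaged 0.76 higher in resistant lines, with 1.77 in pair 1 and -0.26 in pair 2. *Cyp6a21* gave 0.36 (1.05 and -0.33), and *Cyp313a1* -0.60 (-1.17 and -0.03), a call that was lost without the second pool of S1 males, the second of R1 males or either of R1 females (-0.60 to -0.55). Lower in resistant lines on average were *Cyp6a2* at -1.48 (0.67 in pair 1 and -3.64 in pair 2), *Cyp6w1* at -0.82 (0.20 and -1.85) and *Cyp4d14* at -0.60 (0.10 and -1.30, turning to 0.12 without R2). *Cyp12d1-d* averaged -0.77 (-0.22 and -1.32), but it turned to 1.27 without R1 and to 1.82 without S2, and *Cyp6a17* turned to -0.03 and *Cyp6a21* to -0.11 without S1. *Cyp6a19* gave 0.36 with opposite signs in the sexes, and the log2 ratio of its mean Signals was -0.33. Without R2 it was 0.05 and was not called.

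Where the line means were compared as 2 resistant against 2 sensitive lines, the replicates of selection itself, no P450 gene passed an adjusted p under 0.05 (limma; smallest 0.883), nor did any probe set (smallest 0.685), and 7 P450 genes (10%) had an unadjusted p under 0.05, against 5.16% of all probe sets. That comparison leaves the shared founding cultures aside, and with culture as a block, an alternative added after seeing the data, again no probe set passed (smallest adjusted p 0.684), and 7 P450 genes (10%) against 4.66% of all probe sets had an unadjusted p under 0.05. There *Cyp4e3* was at 2.15 ± 0.19 and *Cyp6a23* at -1.64 ± 0.48. In the planned comparison, without the block, they were at 2.15 ± 0.64 and -1.64 ± 0.54. With line as a random block, 6 genes were higher and 5 lower in resistant lines (15.7%, against 4.24% of all probe sets), *Cyp4e3* and *Cyp6a23* among them. This fit used 1 correlation within lines, 0.26, for all probe sets. Its calls still needed the line effect or interaction of the main fit, whose error is the spread between pools. It kept the calls of *Cyp6a2* and *Cyp6a17*, although these differed by -0.09 without S2 and -0.03 without S1. The calls of *Cyp12a5*, *Cyp9h1*, *Cyp6a21*, *Cyp6a19*, *Cyp313a1*, *Cyp4d14* and *Cyp12d1-d* were lost in this random-block fit (unadjusted p of 0.344, 0.149, 0.187, 0.381, 0.0552, 0.141 and 0.458 by limma). Of the 18 called genes, 14 were also called between the 2 control lines (77.8%, against 58.8% of all probe sets called between resistant and sensitive lines). Without the first pool of S1 females 8 genes were higher and 15 lower in resistant lines, and without the second 14 were higher and 11 lower. Line effects rose over all probe sets as well, from 12.3% to 17.7% and 15.8%. The share of all probe sets called is not given without these pools, so the higher counts are not read as a P450 result.

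Within the sexes, resistant and sensitive lines differed for 16 P450 genes in males (8 higher, 8 lower in resistant lines; 7.31% of all probe sets called) and for 18 in females (7 higher, 11 lower; 7.16%). Without the first pool of S1 females these counts were 20 in males and 21 in females, and without the second 22 and 22. Line effects rose over all probe sets too. The difference itself depended on sex for 1 gene, *Cyp6a19* (adjusted p under 0.05; 0.422% of all probe sets), which was also the 1 P450 gene with a line by sex interaction (adjusted p under 0.001; 0.245%). In males *Cyp6a19* had 67.8, 79.0, 320.0 and 316 in R1 and R2, 95.2, 74.0, 52.9 and 56.8 in S1 and S2 and 68.3, 51.8, 52.7 and 49.5 in C1 and C2. In females it had 4487, 4507, 2812 and 2060.5 in R1 and R2, 4828, 3784, 4506 and 5056 in S1 and S2 and 4997, 4771, 3753 and 4158 in C1 and C2. Line R2 was thus the highest line in males and the lowest in females, and its sex difference was -2.92 where the other lines had -5.67 to -6.44. Resistant minus sensitive was 1.17 in males and -0.46 in females (difference 1.63 ± 0.17, adjusted p = 0.00017; interaction adjusted p = 1.52e-06, both by limma). Without either pool of S1 females, *Cyp6w1* and *Cyp313a1* passed the interaction threshold too.

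**Figure D4:**
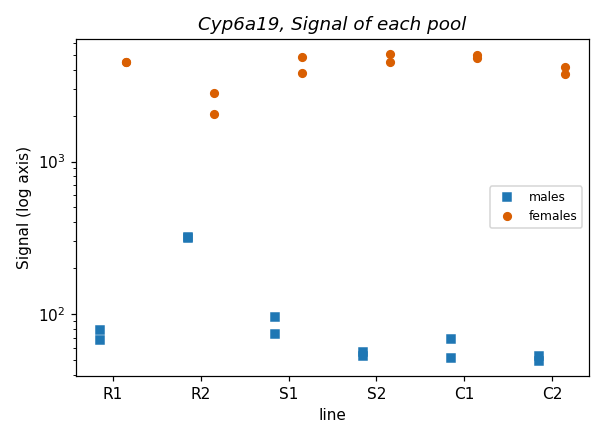
Signal of *Cyp6a19* in every pool (log axis) by line, with males as squares and females as circles. Females lie between 2060.5 and 5056 and males between 49.5 and 320.0, and line R2 has the smallest gap between the sexes.

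Against the control lines, 20 P450 genes were called in resistant lines (9 higher, 11 lower; 7.86% of all probe sets) and 19 in sensitive lines (9 higher, 10 lower; 8.58%). Both comparisons share the control pools, so their values are set side by side only. *Cyp12d1-d* was 2.79 higher in resistant and 3.56 higher in sensitive lines, *Cyp4d21* 1.76 and 1.73, and *Cyp6a17* 1.10 and 0.35. *Cyp28a5* gave -1.36 in both, *Cyp4d14* -1.28 in resistant and -0.68 in sensitive lines, and *Cyp6a2* 0.02 and 1.51. The sensitive differences of *Cyp28a5*, *Cyp6a2*, *Cyp4d21* and *Cyp6a17* lay mostly in S2. Mean Signals in S1, S2, C1 and C2 were 795, 151, 789 and 931 for *Cyp28a5*. In that order they were 725, 4769, 710 and 530 for *Cyp6a2* and 201, 821, 221 and 126 for *Cyp4d21*. For *Cyp6a17* they were 596, 1867, 838 and 793. Without the second pool of S1 females the counts of called genes were 30 and 30, and without the first 26 and 24, while line effects rose over all probe sets too.

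A run of 9 of these genes, neighbours in RefSeq order, did not move as a block. Listed in that order they are *Cyp6a22*, *Cyp6a17*, *Cyp6a23*, *Cyp6a19*, *Cyp6a9*, *Cyp6a20*, *Cyp6a21*, *Cyp6a8* and *Cyp317a1*. Resistant minus sensitive was 0.76 for *Cyp6a17* and -1.64 for its neighbour *Cyp6a23*, and -0.51 for *Cyp6a20* beside 0.36 for *Cyp6a21*. The sex differences were as mixed, with -5.60 for *Cyp6a19* between 0.45 for *Cyp6a23* and 0.21 for *Cyp6a9*. Relative to each gene's own mean, R1, R2 and S2 were above it and S1, C1 and C2 below it for *Cyp6a17*, and the reverse held in every line for *Cyp6a23*. These genes resemble each other in sequence, and how far their probe sets read each other's RNA was not tested.

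**Figure D5:**
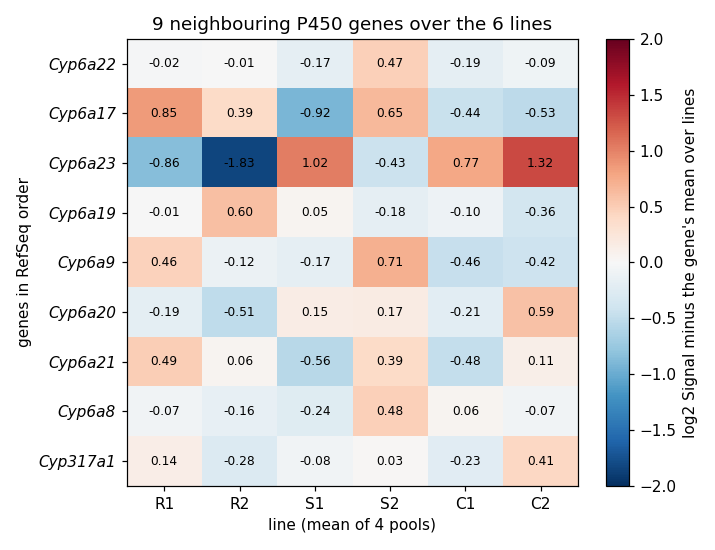
Mean log2 Signal of each line (4 pools) minus the gene's mean over the 6 lines, for 9 P450 genes that neighbour each other, in RefSeq order from top to bottom. *Cyp6a17* and *Cyp6a23* have opposite signs in each of the 6 lines (0.85 and -0.86 in R1, 0.39 and -1.83 in R2, -0.92 and 1.02 in S1, 0.65 and -0.43 in S2, -0.44 and 0.77 in C1, -0.53 and 1.32 in C2).

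Other genes of the pathway were counted by the same calls. Of the 7 genes listed as redox partners, 4 were tested. The ferredoxins *Fdx1* and *Fdx2*, which pass electrons to mitochondrial P450s, were called higher in resistant lines. *Fdx1* gave 0.40 (-0.05 in pair 1) and *Fdx2* 0.35 (-0.04 in pair 2). *Cyt-b5* (-0.34), which serves the enzymes of the endoplasmic reticulum, and *Cyt-b5-r* (-0.35) were not called between resistant and sensitive lines. The difference of *Cyt-b5* had an adjusted p of 0.000655 by limma, but its line effect did not pass (0.00327). By sex, *Cyt-b5* was called higher in males (0.34), and *Fdx1* (-0.34) and *Fdx2* (-0.65) lower. Against control lines *Fdx2* was called higher in resistant lines (0.14), and *Fdx1* (-0.35) and *Fdx2* (-0.21) lower in sensitive lines. Of 13 symbols listed as regulators, 10 were tested and 1 was called between resistant and sensitive lines. That was *Hr38*, a nuclear receptor of the ecdysteroid response (0.41). *Hr96*, the receptor known for sensing foreign compounds, gave 0.20 there and was not called. Against control lines *maf-S* was called lower in resistant (-0.14) and sensitive lines (-0.21). In sensitive lines *Hr38* was also lower (-0.38) and *cnc* higher (0.22). By sex, *Hr38* (1.05) and *maf-S* (0.18) were called higher in males. *Hr39* (-1.18), *tgo* (-1.08), *Hr96* (-0.72) and *EcR* (-0.54) were called lower. Of the 7 ecdysteroid enzymes known by their Halloween names, 5 were below the Signal minimum, and *shd*, which makes 20-hydroxyecdysone, was not called for sex (0.43) or for resistant against sensitive lines (0.35).

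Some tissue markers differed between resistant and sensitive lines as well. Of 6 tested midgut markers, 4 were higher in resistant lines (*Jon99Fi*, *Jon66Ci*, *Jon44E* and *betaTry*, by 3.95, 2.75, 1.49 and 1.02). Their differences lay mostly in pair 2 (6.56, 4.46, 3.37 and 2.07, against 1.35, 1.03, -0.38 and -0.02 in pair 1). *Jon44E* was lower in resistant than in control lines (-0.56), and *alphaTry* (-0.05) and *Mal-A1* (-0.15) were not called between resistant and sensitive lines. The summed Signal of the 6 ran from 57748 to 79751 in resistant, 37049 to 66571 in sensitive and 55365 to 66079 in control males, and from 47421 to 73322, 34670 to 78801 and 50539 to 75142 in females. *Irk3*, 1 of 2 tested Malpighian tubule markers, was 0.75 higher in resistant lines. The other, *Fst*, gave -0.37 (-1.90 in pair 1 and 1.16 in pair 2) and was not called. Sums over both were 1163 to 2780 in resistant and 717 to 2635 in sensitive pools of either sex. Of 3 fat body markers, *fit* (1.78, with 0.12 in pair 2) and *Lsd-2* (0.65) were higher, with sums of 16970 to 22827 in resistant and 14415 to 22876 in sensitive pools. Mean Signal of *fit* was 256 in resistant and 43.4 in sensitive males, the latter below the Signal minimum. In females the mean of *fit* was 1306 in resistant and 1242 in sensitive lines. None of the 3 flight muscle markers was called, and the sex markers *Yp1* and *Acp63F* were called with the sexes averaged, though each is near background in 1 sex. In the sex that expresses it, mean Signal was 18744 in resistant and 17511 in sensitive females for *Yp1* and 10571 in resistant and 9465 in sensitive males for *Acp63F*. No list was at 0 in any pool, and the part of tissue makeup in the P450 differences was not tested.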

How the data were processed

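RNA from whole flies was hybridised to Affymetrix Drosophila Genome 2.0 arrays, 24 in all, with 2 pools of 15 flies for each of 12 groups of line and sex. The authors deposited a MAS5 Signal per probe set, an intensity on a linear scale, and describe a scaling to a common median. In the files the mean trimmed by 2% at each end was 496 to 499 on every array while the medians differed (131 to 150 in males, 55.7 to 81.0 in females), so levels are relative to that trimmed mean, which bears on every comparison of the sexes. Of 18952 probe sets, 183 controls were left out, and 11857 with a Signal of at least 50 on 12 or more arrays were tested. Detection calls were not used. Gene names came from the platform annotation, and all 70 member symbols equal those of RefSeq.

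Signal was raised to a floor of 1 (325 of 284568 tested values, none in a P450 gene) and log2 transformed. In R 4.3.3 with limma 3.58.1 (lmFit, eBayes with a trend), 1 mean was fitted per line and sex, with Benjamini-Hochberg adjustment over all 11857 probe sets. Sex, line and interaction passed at an adjusted p under 0.001, and contrasts also needed p under 0.05. The model is that of the study's methods, moved to the log2 scale. A simulation with known changes was used to test the script. The number of arrays limits the precision, and p-values measure the spread between pools.

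Genes named in the text were the called ones with the largest differences (up to 8 each way between resistant and sensitive lines with 1 direction in both pairs and sexes, 6 each way between sexes), those with an interaction, the 6 widest spans, those over 2 on the log2 scale between lines of a group, and listed partners and regulators with a call. The remaining resistant against sensitive calls, *Cyp6g1* and *Cyp4g1* were named after their values were seen. Part of the rule, on pairs of similar proteins, was not applied because no protein sequences were used here. Members and lists were chosen with earlier results of these data known. A probe set annotated to both *Cyp12d1-d* and *Cyp12d1-p* and 1 annotated to *shn* and *Cyp6v1* were not used. Alternatives covered the pseudocount, filter, normalization, variance model, the methods' analysis of variance, line as the unit, the replicate number and single arrays or lines.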

Additional observations from a re-analysis of the deposited data

Results flagged for a closer look

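The resistant minus sensitive difference of *Cyp6a19* was 1.63 larger in males than in females, by the test of that difference. Among the 25 genes named by rule, 150 sets of 4 pools (1 selection group and sex) were checked for a pool far from the rest, and 5 had one, where chance gives about 1 in 20. *Cyp28c1* had a Signal of 27.8 in the second pool of R2 females, against 4.08 to 7.17 in the other resistant female pools. *Cyp4d21* had 8.80 in the second pool of C2 females, against 2.07 to 2.82. *Cyp6a19* had 68.3 in the first pool of C1 males, against 49.5 to 52.7, and *Cyp6a22* had 225.9 in the second pool of C1 males, against 294 to 306. *Cyp9b1* had 149 in the first pool of C1 females, against 86.8 to 96.4.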

How the results depend on the processing

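The count of P450 genes with a sex effect was 51 to 57 under all alternatives to the 55 reported, and the 12 named sex differences kept their direction and call in all 372 repeats. These 12 were chosen as the largest on the same arrays, so their persistence is no separate support. The filter had fixed the separation of *Cyp28c1* and *Cyp310a1* in advance. The count with a line effect was 22 to 34, or 23 to 40 when single arrays were left out. On Signal + 50 the interaction was called for 3 genes (*Cyp6a19*, *Cyp6w1* and *Cyp313a1*). By the methods' analysis of variance, run on linear Signal, an interaction was called for 3 (*Cyp6a2*, *Cyp6w1* and *Cyp12d1-d*), 5 genes were higher in resistant than sensitive lines, and C1 and C2 differed for 12. With line as a random block, 5 genes were lower in resistant than sensitive lines, 9 were called for resistant and 11 for sensitive against control lines, and 9 in males and 10 in females between resistant and sensitive lines. Over line means, with or without founding culture as a block, 0 were higher and 0 lower. Without line R2, 6 were lower.

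Leaving out single arrays gave 1 to 3 genes with an interaction, 6 to 14 higher and 9 to 15 lower in resistant than sensitive lines, 16 to 30 against control for resistant and 16 to 30 for sensitive lines, and 17 to 32 between S1 and S2. The highest of these came without the second pool of S1 females, except the 15 lower genes, which came without its first pool. The pools' replicate numbers did not pair samples (66 correlations of same-numbered deviations, -0.15 to 0.18), and with a replicate block 54 genes had a sex effect, 26 a line effect, 1 an interaction, and 8 were higher and 10 lower in resistant lines.

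Over the resistant minus sensitive differences of 20 genes (the 18 called, *Cyp4d21* and *Cyp28a5*), 668 repeats kept direction and call, 42 lost the call and 1 gained one. The other 9 changed sign. *Cyp12d1-d* became 1.27 without R1 and 1.82 without S2, *Cyp12a5* 0.29 without R2 and 0.11 without S1, *Cyp4d14* 0.12 without R2, and *Cyp6a19* -0.33 by the analysis of variance. *Cyp6a17* became -0.0266, *Cyp6a21* -0.11 and *Cyp9h1* 0.081 without S1. The cause was not tested. Single arrays ended the calls of *Cyp313a1*, *Cyp6a16*, *Cyp4ac3* and *Cyp9b1*. Both quantile normalizations and the analysis of variance ended those of *Cyp4ac3* and *Cyp6a16*, and the analysis of variance or leaving out the variance trend that of *Cyp313a1*. Without R1, *Cyp313a1* (-0.39), *Cyp4ac3* (0.42), *Cyp6a16* (1.60) and *Cyp6a21* (0.15) were not called, nor without R2 *Cyp28d1* (0.44), *Cyp4ac3* (0.41), *Cyp6a19* (0.05), *Cyp9b1* (-0.44) and *Cyp9h1* (-0.09). Without S2, *Cyp9b1* (-1.11), *Cyp6a2* (-0.09), *Cyp6w1* (-0.07), *Cyp4ac3* (0.09) and *Cyp6a16* (0.22) were not called. Counting the cyclophilins, or only genes present in both sexes, was added after seeing the data and moved no count by over 1.5 times. Low Signals limit *Cyp6a16*, the male values of *Cyp6a19* and the female values of *Cyp4d21*, *Cyp28c1* and *Cyp310a1*.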
